A study of Rattus norvegicus with 15 samples.

Results

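The proneural basic helix-loop-helix (bHLH) genes examined here were the 7 genes Neurog1, Neurog2, Neurod1, Neurod2, Neurod4, Neurod6 and Bhlhe22, chosen by name from the 32623 genes of a rat count table. Each name had 1 row, and all 7 were among the 15354 genes with enough counts to be tested. Frontal lobe cortex was dissected from embryos of Wistar rats at 3 stages named by embryonic day, E14.5, then E16.5, then E18.5. Control mothers ate normal chow, and HFD mothers, which ate a high-fat diet, were already obese when mated with healthy males. Each library was, per the study's methods, a pool of the cortices of 1 litter, so a value averages over littermates and all cell types of the dissection. The diet was the mother's, and the groups differ in maternal obesity and in maternal diet together. There were 3 Control and 2 HFD libraries at each stage, with 5598195 to 9529978 counts each. In bulk tissue, fewer cells of a type and less RNA per cell cannot be told apart.

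Proneural bHLH factors bind DNA at E-boxes, as dimers with the widely expressed E-proteins, and switch on neuronal genes. In the dorsal telencephalon Neurog1 and Neurog2 act in dividing progenitors, where they start neurogenesis and raise Notch ligands. Neurod1 and Neurod4 act next, in intermediate progenitors and newborn neurons, and Neurod2, Neurod6 and Bhlhe22 act in postmitotic excitatory neurons, in their differentiation, connections and areal identity. Id proteins block the E-proteins, and the Notch-driven Hes and Hey proteins repress proneural genes. Most of these roles are known from the mouse.

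Sequences before the start of Neurod2 and Neurod6, a pair that moved together in these libraries, are shown beside that of Neurog2, a progenitor factor, because E-boxes are the sites these factors bind. RefSeq promoter records (GRCr8, another build than the rn6 of the counts) matched 6 of the 7 genes, and Bhlhe22 was not among them. The 250 bases before each start follow, 5′ to 3′ on the gene's strand, with 2 kinds of E-box in capitals: CAGATG, whose other strand reads CATCTG, and the palindrome CATATG.
Neurod2, chr10:83824278-83824527, minus strand: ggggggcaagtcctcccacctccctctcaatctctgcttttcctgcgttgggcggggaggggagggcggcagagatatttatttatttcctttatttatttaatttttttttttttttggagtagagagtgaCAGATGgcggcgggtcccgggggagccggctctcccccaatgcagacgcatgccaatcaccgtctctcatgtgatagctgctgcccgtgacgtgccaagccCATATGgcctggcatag
Neurod6, chr4:86180156-86180405, minus strand: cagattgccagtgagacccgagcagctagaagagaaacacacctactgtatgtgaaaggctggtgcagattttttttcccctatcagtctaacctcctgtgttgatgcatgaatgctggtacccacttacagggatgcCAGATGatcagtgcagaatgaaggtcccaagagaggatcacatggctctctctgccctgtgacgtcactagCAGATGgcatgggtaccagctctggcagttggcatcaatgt
Neurog2, chr2:218766955-218767204, plus strand: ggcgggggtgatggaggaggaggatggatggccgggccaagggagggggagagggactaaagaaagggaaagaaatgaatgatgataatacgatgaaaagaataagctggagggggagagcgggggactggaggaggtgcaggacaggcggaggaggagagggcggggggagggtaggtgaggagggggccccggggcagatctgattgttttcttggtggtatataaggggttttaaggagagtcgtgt
Neurod2 held 1 CAGATG, which began 118 bases before the start, and 1 CATATG, which began 17 bases before it. Neurod6 held 2 CAGATG, which began 112 and 41 bases before the start. The windows of Neurog1, Neurog2, Neurod1 and Neurod4 held neither. Of 33469 RefSeq promoter windows of this length, 14% held at least 1 CAGATG and 3.63% at least 1 CATATG, and 1.9% held at least 2 of either kind. Also searched for were CAGCTG and CAGGTG, found in none of the 6 matched windows and in 12% and 15.9% of all windows. CACNAG, where N is any base, was in those of Neurod1, Neurod4 and Neurod6, and in 37.2% of all windows. A match describes the letters only and is not evidence of binding.

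One library stood apart. The library labelled E18.5 Control replicate 1 was closest to E14.5 Control replicate 1, with a pairwise biological coefficient of variation of 0.0926, against 0.467 to 0.495 with the other E18.5 libraries. Cryaa, a lens crystallin, was at 129 CPM (counts scaled by library size with TMM factors) there, at 137 to 248 CPM in the 5 E14.5 libraries, and at 0 to 0.384 CPM in every other library. It was left out of the tests and group means below, and its values are given separately. The labelled tissue was present, since the cortical neuron factor Tbr1 and the progenitor factor Pax6 were detected in every library, but the E14.5 libraries also held other tissue. The summed level of the head mesenchyme and meninges markers in the table, 9 of a list of 10, was 4000, 1935 and 1106 CPM in E14.5 Control replicates 1, 2 and 3 and 3336 and 2827 CPM in the E14.5 HFD libraries, against 228 to 871 CPM in the libraries of the later stages.

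**Figure D1:**
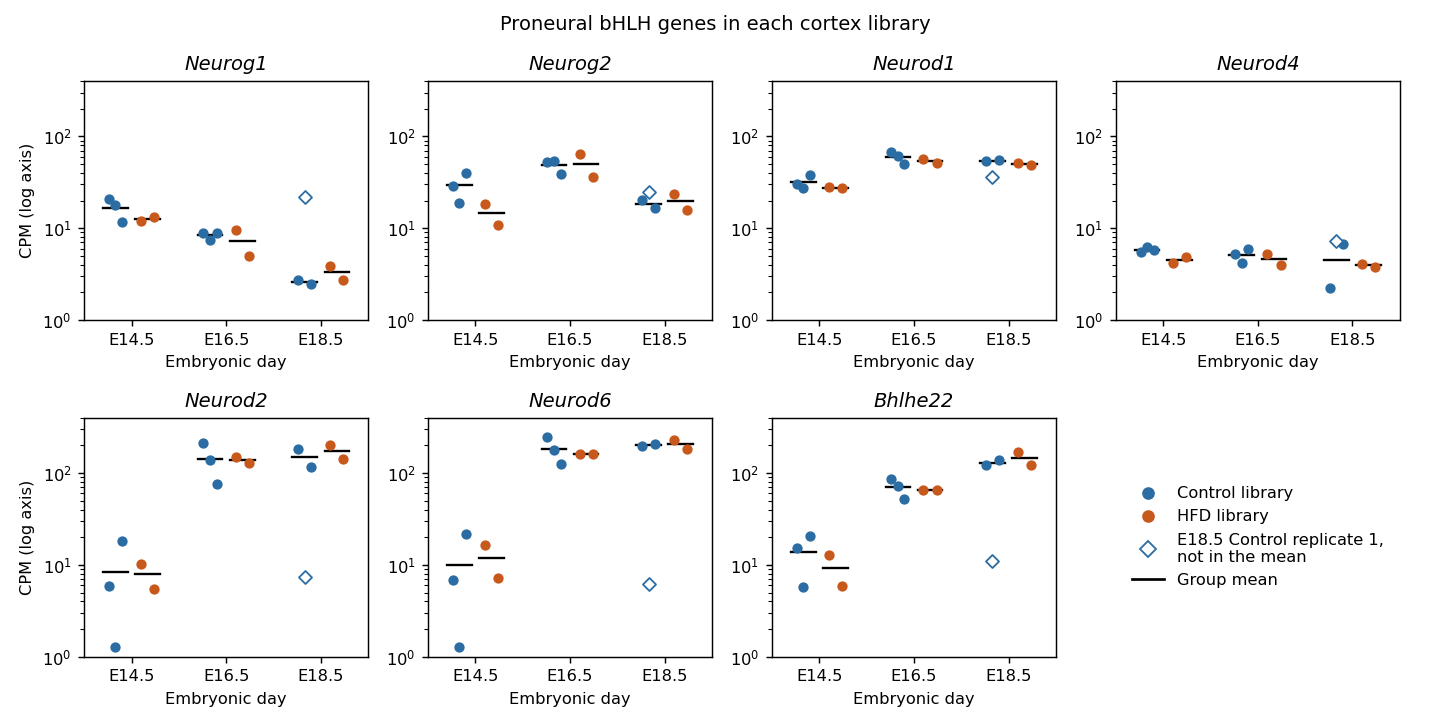
CPM (log axis) of each gene by embryonic day, with 1 point per library, blue for Control, orange for HFD, a bar for the group mean and an open diamond for the library labelled E18.5 Control replicate 1. Neurog1 went down over the stages, Neurog2 was highest at E16.5, and Neurod2, Neurod6 and Bhlhe22 were low in all E14.5 libraries; the diamond sits among the E14.5 values or beyond them.

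In Control cortex between E14.5 and E16.5, Neurod1, Neurod2, Neurod6 and Bhlhe22 rose and Neurog1 fell (4 of 7 higher, 1 of 7 lower), where 12.3% and 11.1% of all genes tested were called higher and lower. In HFD cortex over the same interval 5 of 7 rose, Neurog2 and the same 4 as in Control, and none fell, against 16% of all genes called higher and 30.5% called in either direction. From E16.5 to E18.5 in Control, Neurog1 and Neurog2 fell and no member rose, against 5.87% lower and 4.72% higher among all genes. In HFD no member passed from E16.5 to E18.5, where 3.85% of all genes were lower and 2.02% higher. All tests were edgeR quasi-likelihood tests with Benjamini-Hochberg adjustment over 15354 genes, and a gene was called at an adjusted p under 0.05.

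Neurog1, which starts neurogenesis in progenitors, had CPM values of 21.0, 17.8 and 11.6 for E14.5 Control and of 11.99 and 13.3 for E14.5 HFD. For E16.5 Control the CPM values were 8.93, 7.45 and 8.88, and for E16.5 HFD 9.63 and 4.99. For E18.5 Control they were 2.76 and 2.49 CPM, and for E18.5 HFD 3.93 and 2.74 CPM. No library of a later stage overlapped one of an earlier stage, in either diet. Such separation was common: of all genes tested, 36.6% in Control and 68.1% in HFD did not overlap between E14.5 and E16.5 (5 and 6 of 7 members), and 46.3% and 54.9% did not between E16.5 and E18.5 (3 and 5 of 7 members). The Control means were 16.8 ± 4.79 (SD, n = 3), 8.42 ± 0.843 (n = 3) and 2.62 ± 0.189 CPM (n = 2). In edgeR the log2 fold change in Control was -0.99 ± 0.26 (SE, adjusted p = 0.0175) to E16.5 and -1.68 ± 0.34 (adjusted p = 0.00988) from there to E18.5. The first call was lost without E14.5 Control replicate 2 (adjusted p = 0.0516) or E16.5 Control replicate 2 (adjusted p = 0.0736), and the second without E18.5 Control replicate 2 (adjusted p = 0.0842) or replicate 3 (adjusted p = 0.0798). In HFD the edgeR values were -0.79 ± 0.32 (adjusted p = 0.0829) and -1.15 ± 0.36 (adjusted p = 0.0842).

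Neurog1 is also used by cranial sensory neurons and olfactory placodes, and markers of these moved over the first interval. Over that interval, 1708 of the 15354 genes tested were called lower in Control and 2225 in HFD. Of 8 cranial sensory ganglia markers 7 were tested, and 4 were lower at E16.5 than at E14.5 in each diet. Their summed level was 57.5 to 167 CPM in E14.5 Control and 148 to 196 CPM in E14.5 HFD, against 27.0 to 54.1 CPM in the libraries of later stages. Of 5 olfactory epithelium and placode markers 4 were tested, and 3 were lower at E16.5 in each diet, with a summed level of 74.1 to 159 CPM in E14.5 Control and 149 to 182 CPM in E14.5 HFD, against 29.7 to 41.0 CPM at E16.5. From E16.5 to E18.5, the interval of the second Neurog1 fall, none of the 7 tested ganglia markers passed in either diet. Of the 4 olfactory and placode markers 1 was lower in Control and 0 in HFD, where 5.87% and 3.85% of all genes were lower. The summed Control level of these markers went from 30.6 to 41.0 CPM to 21.8 to 26.5 CPM, with no overlap. The part of these tissues in the Neurog1 values was not tested.

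Neurog2, the main driver of cortical glutamatergic neurogenesis, had its highest levels at E16.5. The CPM values were 29.0, 19.0 and 40.2 for E14.5 Control and 18.2 and 10.8 for E14.5 HFD. They were 53.2, 53.6 and 39.1 for E16.5 Control and 63.5 and 36.0 for E16.5 HFD, then 20.1 and 16.7 for E18.5 Control and 23.7 and 15.9 for E18.5 HFD. The E16.5 and E18.5 libraries did not overlap in either diet, whereas E14.5 and E16.5 Control libraries did. By edgeR the rise to E16.5 in HFD was 1.78 ± 0.39 on the log2 scale (adjusted p = 0.00499), a 3.44-fold difference, and it lost its call without E14.5 HFD replicate 2 (1.45, adjusted p = 0.0626). In Control the edgeR value was 0.72 ± 0.30 (adjusted p = 0.108), and 1.03 (adjusted p = 0.035) without E14.5 Control replicate 3. The fall to E18.5 in Control was -1.40 ± 0.36 in edgeR (adjusted p = 0.0308), but leaving out any one Control library of these stages gave adjusted p values from 0.0523 to 0.172. In HFD it was -1.34 ± 0.38 (edgeR, adjusted p = 0.0655), and DESeq2 called it (adjusted p = 0.014).

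Neurod1, which acts in intermediate progenitors and newborn neurons, rose to E16.5 in both diets and did not pass the test after that. Its CPM values were 30.0, 27.3 and 37.7 for E14.5 Control and 27.8 and 27.7 for E14.5 HFD. All 9 later libraries in the tests lay above these, with CPM values of 67.5, 61.6 and 50.2 for E16.5 Control, 57.0 and 51.8 for E16.5 HFD, 53.3 and 55.7 for E18.5 Control, and 51.0 and 48.9 for E18.5 HFD. The edgeR log2 fold change to E16.5 was 0.91 ± 0.14 in Control (adjusted p = 0.00124) and 0.97 ± 0.17 in HFD (adjusted p = 0.00118). Both calls held without any one library in turn. From E16.5 to E18.5 the 95% interval was -0.45 to 0.20 in Control and -0.48 to 0.23 in HFD.

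Neurod4, which acts beside the neurogenins in newborn neurons, was the member with the narrowest range. Its group means ran from 3.93 to 5.85 CPM, a ratio of 1.49 between the highest and the lowest, and each neighbour in that order overlapped the next. The lowest and highest libraries were both E18.5 Control, at 2.23 and 6.76 CPM. At this depth 1 count was worth 0.104 to 0.186 CPM, and no contrast passed the test.

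Neurod2 and Neurod6, factors of postmitotic excitatory neurons, had the largest rises among the members. Neurod2 had CPM values of 5.87, 1.27 and 18.2 for E14.5 Control and 10.3 and 5.52 for E14.5 HFD, then 212, 138 and 75.4 for E16.5 Control and 149.6 and 129 for E16.5 HFD. For Neurod6 the CPM values were 6.93, 1.27 and 21.5 for E14.5 Control and 16.4 and 7.14 for E14.5 HFD, then 246, 180.1 and 125 for E16.5 Control and 163 and 161 for E16.5 HFD. The same libraries were high or low for both genes: E14.5 Control replicate 2 was the lowest and replicate 3 the highest at E14.5, and E16.5 Control replicate 3 the lowest at E16.5. In edgeR the Control rise was 4.04 ± 0.72 on the log2 scale for Neurod2 (adjusted p = 0.00462) and 4.19 ± 0.71 for Neurod6 (adjusted p = 0.00379). In HFD it was 4.14 ± 0.88 (adjusted p = 0.00638) and 3.79 ± 0.85 (adjusted p = 0.00811), and without E14.5 HFD replicate 2 both edgeR calls were lost (3.75, adjusted p = 0.0756, and 3.31, adjusted p = 0.088).

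From E16.5 to E18.5 neither gene passed. Neurod2 had CPM values of 185 and 117 for E18.5 Control and 202 and 144 for E18.5 HFD, and Neurod6 had 197 and 205 for E18.5 Control and 230.1 and 183 for E18.5 HFD. The 95% interval of the Control difference ran from -1.42 to 1.60 on the log2 scale for Neurod2 and from -1.36 to 1.62 for Neurod6. A change of 2-fold either way was within both. The spread was estimated per gene over all groups together, so the uneven E14.5 libraries also entered the width of these intervals.

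Bhlhe22, a repressor partner in projection neurons of the cortex, had CPM values of 15.3, 5.79 and 20.7 for E14.5 Control and 12.7 and 5.84 for E14.5 HFD. They were 86.7, 72.7 and 52.0 for E16.5 Control and 64.8 and 66.0 for E16.5 HFD, then 122 and 137 for E18.5 Control and 169 and 123 for E18.5 HFD. It was the member whose libraries were highest at the last stage, with no overlap between stages in either diet. The rise to E16.5 was 2.34 ± 0.40 in Control (edgeR, adjusted p = 0.003) and 2.82 ± 0.50 in HFD (edgeR, adjusted p = 0.00199). The later difference, 0.89 ± 0.40 in Control and 1.16 ± 0.44 in HFD, did not pass in edgeR (adjusted p = 0.187 and 0.165). Fits of only the groups compared called it (edgeR, adjusted p = 0.0212 and 0.00695). So did the fit without E14.5 Control replicate 2 (edgeR, adjusted p = 0.0486 and 0.0376). With E16.5 and E18.5 libraries only, an alternative chosen after seeing the data, it also passed (edgeR, adjusted p = 0.014 and 0.00954). DESeq2 and limma-voom did not call it.

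**Figure D2:**
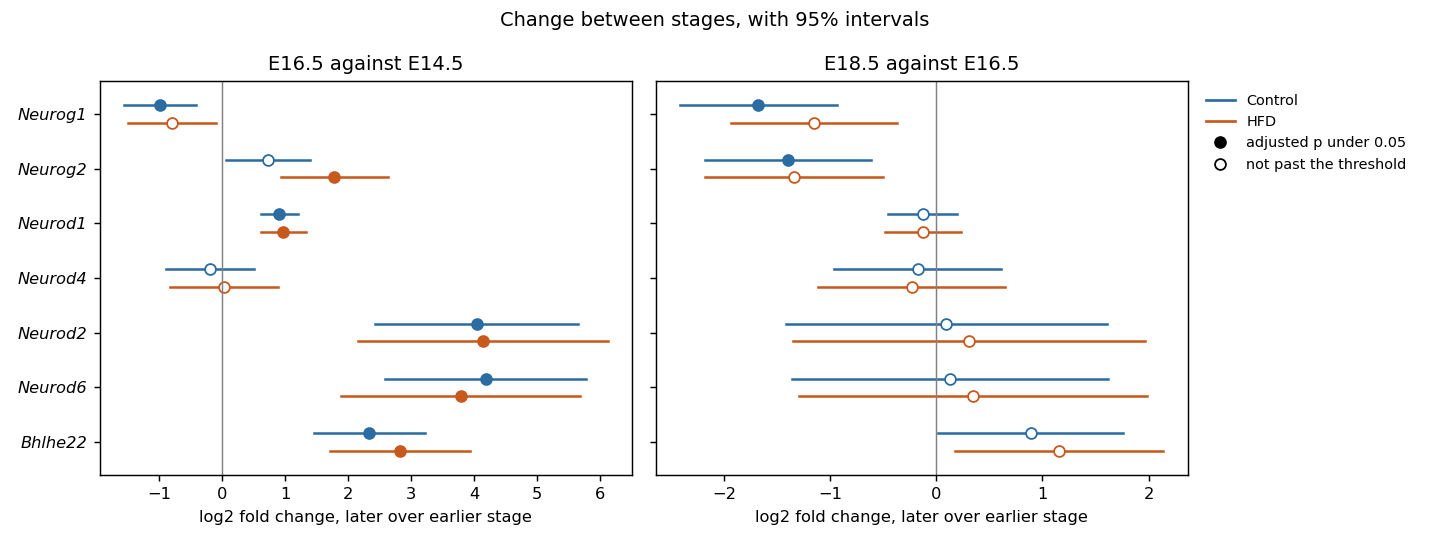
Log2 fold change of each gene between successive stages (later over earlier) in Control (blue) and HFD (orange), with 95% intervals, filled where the adjusted p was under 0.05. Neurod2 and Neurod6 lie near 4 for E16.5 against E14.5 with wide intervals, and the 2 filled points for E18.5 against E16.5 are Neurog1 and Neurog2 in Control.

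The rises of the 3 neuronal members went with those of cortical neuron markers and with lower levels of head mesenchyme markers. From E14.5 to E16.5, 1881 of all 15354 genes tested were called higher and 1708 lower in Control, and 2459 and 2225 in HFD. All 9 markers of cortical excitatory neurons passed as higher at E16.5 than at E14.5 in Control and 8 of 9 in HFD. This was not particular to excitatory neurons. Of 7 GABA neuron markers tested, 7 were higher in Control and 5 in HFD. Of 6 intermediate progenitor markers tested, 1 was higher in Control and 6 in HFD. Of the 9 head mesenchyme and meninges markers tested, 6 were lower in Control and 9 in HFD, and Twist1, a mesenchyme factor, was at 28.9 to 108 CPM at E14.5 and at 1.37 to 3.55 CPM in the later libraries. With a head mesenchyme score as a covariate no member passed between these stages, and 1 gene of all was called in Control and 0 in HFD, since the score itself separates the stages. How much of each rise goes with tissue content and how much with stage is therefore not known. With all 15 libraries in the fit, 0 members and 0 of all genes were called in both Control comparisons of stages.

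Members were also compared with each other within a library. The ratio of Neurog2 to Neurog1 counts was 0.813 to 3.47 in the 5 E14.5 libraries, 4.40 to 7.21 in the 5 at E16.5 and 5.79 to 7.29 in the 4 at E18.5, so E14.5 lay below both later stages, which overlapped. Among the E14.5 libraries the lowest ratio, 0.813, was in the library with the highest summed level of cranial sensory ganglia markers (196 CPM, HFD replicate 2). The highest, 3.47, was in that with the lowest (57.5 CPM, Control replicate 3). Between these the order did not hold. The ratio was 1.06 at 82.5 CPM in Control replicate 2, 1.38 at 167 CPM in Control replicate 1 and 1.51 at 148 CPM in HFD replicate 1. The part of that tissue, which uses Neurog1, in the ratio was not tested. The ratio of summed Neurod2, Neurod6 and Bhlhe22 to summed Neurog1 and Neurog2 was 0.226 to 1.31 at E14.5, 5.15 to 8.76 at E16.5 and 21.7 to 24.1 at E18.5, with no overlap between stages. In the library labelled E18.5 Control replicate 1 the CPM values were 21.9 for Neurog1, 24.6 for Neurog2, 36.2 for Neurod1, 7.18 for Neurod4, 7.35 for Neurod2, 6.20 for Neurod6 and 10.9 for Bhlhe22, so the 3 neuronal members lay within their E14.5 ranges. That library had ratios of 1.13 and 0.526, both within the E14.5 ranges. Within each stage Control and HFD libraries overlapped in the second ratio. In the first they overlapped at E14.5 and E16.5 but not at E18.5, where it was 7.29 and 6.71 for Control and 6.04 and 5.79 for HFD, a difference with no test.

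**Figure D3:**
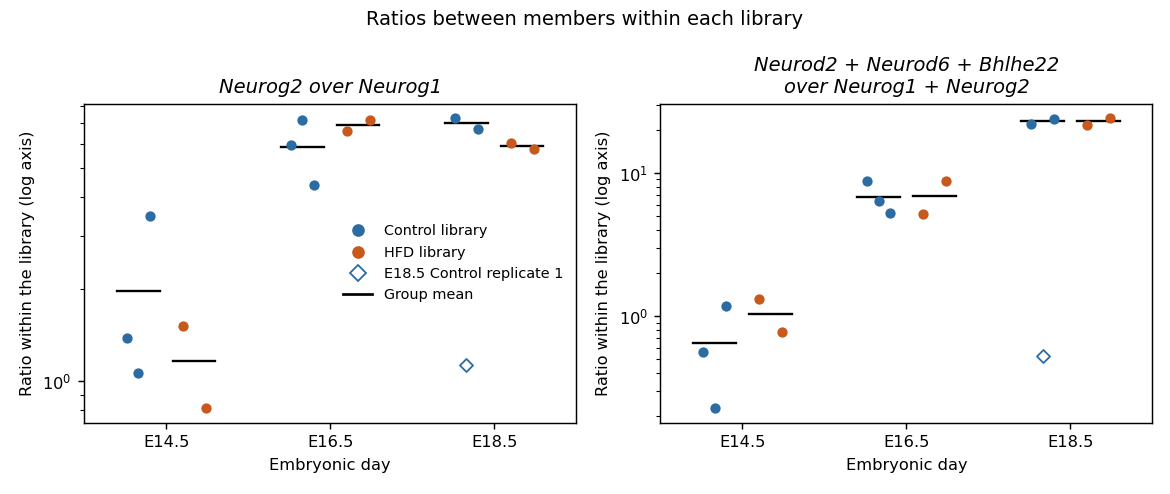
Ratio of Neurog2 to Neurog1 and of summed Neurod2, Neurod6 and Bhlhe22 to summed Neurog1 and Neurog2 in each library (log axes, 1 point per library, bars for group means, open diamond for the library labelled E18.5 Control replicate 1). The neuronal ratio steps up at each stage, from 0.226 to 1.31 at E14.5 to 21.7 to 24.1 at E18.5.

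Over the 14 libraries, which share stage, Neurod2 and Neurod6 had a Pearson correlation of log2 CPM of 0.995, and after subtracting each group's mean it was 0.97. The values before and after that subtraction were 0.952 and 0.949 for Neurod6 with Bhlhe22 and 0.946 and 0.847 for Neurod1 with Neurod2. Neurog1 ran against Bhlhe22 over all libraries (-0.848) and less so after the subtraction (-0.239), and Neurog1 with Neurog2 gave 0.186 and 0.11. These values are descriptions of libraries that also share tissue content.

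Among 10902 genes of at least 5 CPM, those whose pattern was most like Neurog2 were Phf21b (0.956), Hes6 (0.953), a cofactor of neurogenesis in the mouse, and Brwd1 (0.937). Neurod2 was most like Plcb1 (0.995), Plxna2 (0.993) and Ppp1r1b (0.992), and Neurod6 like Ppp1r1b (0.991), Plcb1 (0.991) and Ppp2r2b (0.99). Bhlhe22 was most like B3gat1 (0.997), Tnr (0.997) and Sult4a1 (0.995), and Neurod1 like Arl4d (0.977), Sorbs2 (0.969) and Foxo6 (0.968). Neurog1 was most like Rbm15 (0.98), Hist2h3c2 (0.976) and Hk2 (0.969). Neurod4, with its narrow range, had lower values, among them Zbtb26 (0.816) and Atp5pb (0.81).

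No member passed the threshold for maternal diet at any stage. In edgeR 0 of 7 members and 0% of all genes were called at each of the 3 stages, in the average over stages, and in both tests of whether the diet effect differed between stages. Before adjustment, p was under 0.05 for 749 genes above and 704 below 0 at E14.5, for 126 and 234 at E16.5 and for 100 and 136 at E18.5, and 1 of these was a member. DESeq2 called 28 genes higher and 68 lower at E14.5, 0 at E16.5 and 10 higher and 2 lower at E18.5, none of them a member. The E14.5 count of all genes turned on single libraries: edgeR called 168 genes higher and 29 lower without E14.5 Control replicate 1, and 9 higher and 166 lower without E14.5 Control replicate 2, with no member among them.

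Neurog2 at E14.5 was that member. Its 3 Control libraries (29.0, 19.0 and 40.2 CPM) all lay above the 2 HFD libraries (18.2 and 10.8 CPM), though the lowest Control and the highest HFD value were close. The edgeR difference, HFD over Control, was -1.02 ± 0.36 on the log2 scale (95% interval -1.82 to -0.23), with an adjusted p of 0.402 and a value before adjustment of 0.0159. Over its alternatives the adjusted p ran from 0.095 to 1 and the value from -1.44 to -0.50, the weakest being that with the head mesenchyme covariate. At E16.5 and E18.5 the diet difference of Neurog2 was 0.04 ± 0.33 and 0.09 ± 0.39, and the edgeR test of the difference in diet effect between E16.5 and E14.5 gave 1.06 ± 0.49 (adjusted p = 0.634). Beside this, the summed head mesenchyme markers at E14.5 overlapped between diets, but their mean log2 CPM over 9 genes did not, at 6.64 and 6.74 for HFD and 6.29, 5.73 and 5.30 for Control, and Twist1 had CPM values of 93.5 and 108 for HFD and 70.7, 54.2 and 28.9 for Control. Summed markers of radial glia and of intermediate progenitors did not overlap either, although no marker was called. Those of radial glia were at 2125 to 2264 CPM for Control and 1877 to 1958 CPM for HFD. Those of intermediate progenitors were at 275 to 351 CPM for Control and 188 to 236 CPM for HFD. Single markers could overlap, as Hes1 of the radial glia list did, at 27.4 to 36.6 CPM for Control and 32.6 and 37.3 CPM for HFD. Summed cortical excitatory neuron markers overlapped, at 1306 to 2934 CPM for Control and 1208 to 1795 CPM for HFD. The summed lens markers were higher in HFD, at 172 to 220 CPM for Control and 228 to 353 CPM for HFD. The part of tissue and cell content in the Neurog2 difference was not tested.

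The other members at E14.5 had intervals that included 0. Neurod4 also did not overlap between diets, with CPM values of 5.51, 6.25 and 5.79 for Control and 4.15 and 4.87 for HFD (log2 difference -0.38 ± 0.36). Thus 2 of 7 members did not overlap, against 20.8% of all genes. At E16.5 it was 0 of 7 against 17.4%, and at E18.5 1 of 7, Neurod1, against 29%. Intervals were narrowest for Neurod1, from -0.53 to 0.14 at E14.5, from -0.46 to 0.19 at E16.5 and from -0.48 to 0.23 at E18.5. They were widest for Neurod2, from -1.99 to 1.75 at E14.5, so the design could not show even a 2-fold diet difference for that gene.

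**Figure D4:**
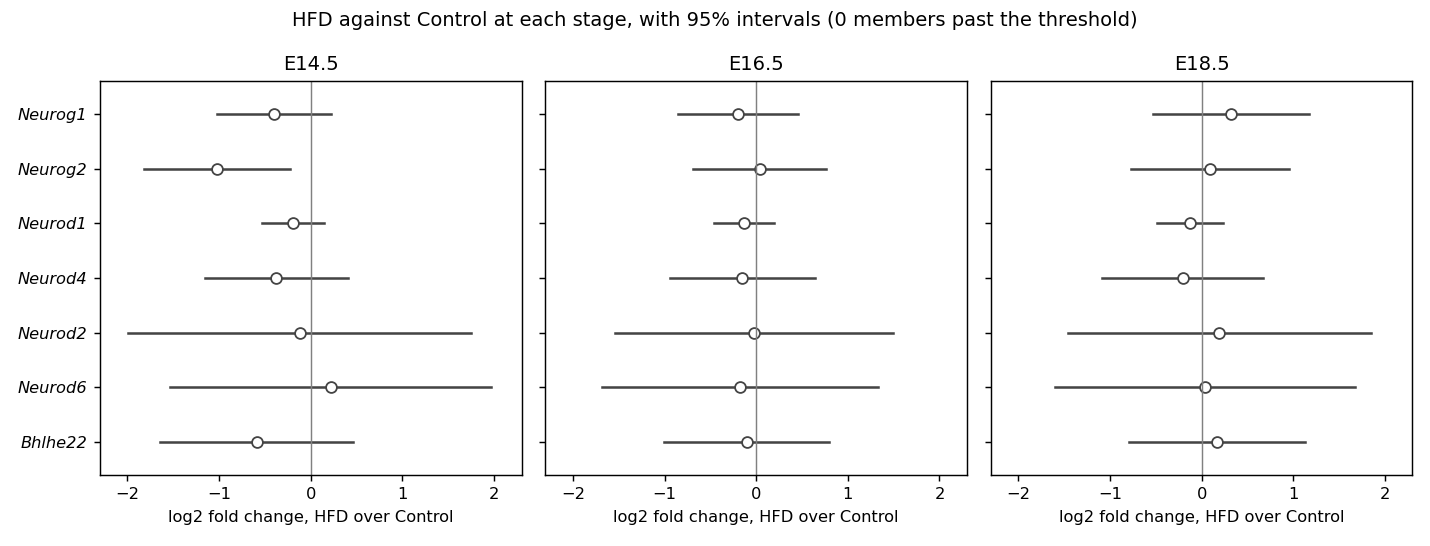
Log2 fold change (HFD over Control) of each gene, with 1 panel per stage, 95% intervals, and open points because none passed the threshold. The Neurog2 interval at E14.5 (-1.82 to -0.23) is the one that does not include 0.

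The genes that the neurogenins switch on were described from a list of 14, all tested. None was called for diet at E14.5 in edgeR, while 11 lay below 0 and 3 above, with a median log2 difference of -0.57 against -0.01 over all genes. The lower summed progenitor and higher summed lens marker levels of the HFD libraries, given with Neurog2, stand beside this, and their part in the list's values was not tested. The lists are not independent, since Eomes, Btg2, Gadd45g, Mfng and Dll3 are on both this list and that of intermediate progenitor markers, and Hes1 and Hes5, described with the repressors, are also radial glia markers. Those with the smallest p were Btg2, an antiproliferative gene of neurogenic divisions, and the Notch ligands Dll1 and Dll3. Btg2 had CPM values of 73.4, 66.4 and 73.7 for Control and 49.98 and 38.3 for HFD (-0.69 ± 0.12, edgeR adjusted p = 0.148). Dll1 had CPM values of 90.8, 94.9 and 115 for Control and 66.0 and 59.2 for HFD (-0.68 ± 0.13, edgeR adjusted p = 0.179), and Dll3 of 43.6, 38.2 and 37.4 for Control and 24.3 and 15.7 for HFD (-0.99 ± 0.21, edgeR adjusted p = 0.213). The 2 diets did not overlap for these 3 genes, which were named for their small p. At E16.5 and E18.5 the list medians were -0.02 and 0.03.

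Between stages part of the same list rose and then fell. From E14.5 to E16.5, 6 of 14 rose and 1 fell in Control, where 12.3% and 11.1% of all genes were called higher and lower. In HFD 12 rose and 1 fell, against 16% of all genes called higher and 30.5% called in either direction. None of the 14 was called for a difference in diet effect between these stages. The gene that fell in both diets was Cdkn1c, a cell cycle inhibitor. From E16.5 to E18.5, 7 of 14 fell and 0 rose in each diet, with median log2 changes of -0.85 and -0.80. Over that interval 5.87% of all genes were lower and 4.72% higher in Control, and 3.85% and 2.02% in HFD. Nhlh1, a bHLH gene of newborn neurons, fell by 1.58 ± 0.18 in Control (edgeR, adjusted p = 0.00096), and Dll1 fell by 1.14 ± 0.13 (edgeR, adjusted p = 0.00096) and Btg2 by 0.96 ± 0.12 (edgeR, adjusted p = 0.00128).

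The partners and inhibitors of the members each moved in their own way. Of the 3 E-proteins, Tcf4 rose to E16.5 by 1.12 ± 0.16 in Control (edgeR, adjusted p = 0.00111), and Tcf3 and Tcf12 fell to E18.5 in both diets (Tcf3 by 0.83 ± 0.12 in Control, edgeR, adjusted p = 0.00192). Of the 4 Id genes, Id1 and Id3 fell to E16.5 in both diets (Id3 -1.93 in Control and -2.57 in HFD), over the interval in which mesenchyme markers also fell, and none passed from E16.5 to E18.5. Of the 5 Hes and Hey genes, 3 fell to E18.5 in Control and 2 in HFD, where 5.87% and 3.85% of all genes were lower. Those in Control were Hes1 (-1.41 ± 0.19, edgeR adjusted p = 0.00148), Hes5 (-1.16 ± 0.20, edgeR adjusted p = 0.00449) and Hey1. Hes5, the Notch effector of cortical progenitors, had CPM values of 63.3, 66.9 and 66.8 for E14.5 Control and 38.9 and 31.4 for E14.5 HFD (-0.90 ± 0.19, edgeR adjusted p = 0.213). It was the 1 gene of its list below 0 for diet at E14.5. The other 4 lay above 0, among them Hey2 (0.93 ± 0.27, edgeR adjusted p = 0.308), and the list median was 0.10. Of the 4 Id genes 3 lay above 0 and 1 below, with a median of 0.36. None of either list was called for diet.

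Of 9 corepressors and cofactors 8 were in the table and tested. None was called for diet, with 7 of 8 below 0 at E14.5 (median -0.53), among them St18 (-1.06 ± 0.24, edgeR adjusted p = 0.244), Myt1 (-0.64 ± 0.19, edgeR adjusted p = 0.308) and Hes6 (-0.54 ± 0.17, edgeR adjusted p = 0.356). To E16.5, 2 of 8 rose in Control and 7 of 8 in HFD, against 12.3% and 16% of all genes. None of the 8 was called for a difference in diet effect between E14.5 and E16.5. Prdm8, with which Bhlhe22 forms a repressor complex in the mouse, rose by 2.82 ± 0.45 in Control (edgeR, adjusted p = 0.00221). Among 7 upstream regulators of dorsal progenitors, Sox11 and Emx1 rose to E16.5 in both diets, while Gli3, Emx2 and Lhx2 fell to E18.5 in Control (Gli3 by 1.15 ± 0.19, edgeR, adjusted p = 0.00385). Sox2 had the smallest p for diet at E14.5 in that list (-0.45 ± 0.20, edgeR adjusted p = 0.511).

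Of 12 bHLH genes of other lineages 9 were tested. None was called for diet at E14.5, while 8 lay below 0 and 1 above. Their median log2 difference was -0.87, against -0.01 over all genes and -0.57 for the list of genes that the neurogenins switch on. Olig2 (-0.81 ± 0.25, edgeR adjusted p = 0.325) and Tal1 (-0.87 ± 0.33, edgeR adjusted p = 0.433) were among those with the smallest p. Olig1, a factor of the oligodendrocyte lineage, rose to E18.5 in both diets (2.38 ± 0.28 in Control, edgeR, adjusted p = 0.00096). Tal1 and Atoh8 fell to E16.5 in Control, with log2 changes of -1.93 ± 0.31 (edgeR, adjusted p = 0.00186) and -1.55 (edgeR, adjusted p = 0.00555).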

How the data were processed

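Total RNA from 15 pools of embryonic rat cortex was depleted of ribosomal RNA and sequenced. The authors deposited 1 gene table of expected counts as whole numbers, not normalised. Reads were aligned with Bowtie2 to rn6. The study's methods name RSEM and the submitters' processing notes name HTSeq, so how reads shared by gene copies were assigned, and whether strand was used, is unclear. Totals of 5598195 to 9529978 counts limit the precision of genes near 1 CPM.

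The members, gene lists, tests and alternatives were chosen with earlier results of these data known. Library E18.5 Control replicate 1 was left out of the fit for that reason. The other 14 libraries were fitted with edgeR 4.0.16 (R 4.3.3): TMM scaling, filterByExpr by group, robust quasi-likelihood, 1 mean per group of stage and diet, 10 contrasts, and Benjamini-Hochberg adjustment over 15354 genes at 0.05. The estimate of each gene's spread was shared over groups. The standard error is the absolute log2 fold change over the square root of F. Log2 CPM had a prior count of 2. The test was tested on simulated data. Replicates are separate litters per the study's methods. Sequences came from RefSeq promoter records. Besides all members, the text names the 3 genes most like each member and, of each list, up to 3 with the smallest p for diet at E14.5 and up to 3 over stages; some genes that this rule names are not reported here. Cdkn1c, Hey1, Emx1, Lhx2 and the tissue markers were named after their values were seen. Alternatives were all 15 libraries, DESeq2 1.42.0, limma-voom (limma 3.58.1), RLE and upper-quartile factors, a minimum of 10 counts everywhere, no filter, a head mesenchyme covariate, a replicate block, fits of only the groups or stages compared, and each library left out.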

Additional observations from a re-analysis of the deposited data

Results flagged for a closer look

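Of the members, 3 were higher in E18.5 Control replicate 1 (a label its values go against, and left out of the tests) than in both other E18.5 Control libraries. Neurog1 was at 21.9 CPM there, against at most 2.76 CPM in the others. Neurog2 was at 24.6 CPM against at most 20.1 CPM, and Neurod4 at 7.18 CPM against at most 6.76 CPM. Groups of 2 or 3 libraries were not examined for outliers, and no member passed the test of a difference in diet effect between stages.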

How the results depend on the processing

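The stage results of the members rest on 2 or 3 libraries a group, and every diet interval of a member included 0 except that of Neurog2 at E14.5. With all 15 libraries, 0 members were called in either direction in both Control comparisons, and the Control values to E18.5 turned to 0.030 for Neurog1, -0.45 for Neurod2, 0.052 for Neurod4 and -0.42 for Neurod6, while the E18.5 diet values turned to -1.37 for Neurog1, -0.027 for Neurog2 and 0.059 for Neurod1; the library's resemblance to E14.5 is part of that fit. With the head mesenchyme covariate 0 members were called from E14.5 to E16.5 in either diet. Under it Neurog2 turned to -0.19 in Control, and in HFD Neurog1 turned to 0.051, Neurog2 to -0.14, Neurod4 to -1.27 and Neurod6 to -0.16. Diet values under it turned to 1.06 for Neurod2 at E14.5, 0.0040 for Neurog1 and -0.45 for Neurog2 at E16.5, and -0.14 for Neurog2, -0.29 for Neurod2 and -0.45 for Neurod6 at E18.5. With limma-voom Neurod2 turned to 0.54 at E14.5 and 0.11 at E16.5 for diet, with no filter to 0.0093 and with at least 10 counts in every library to 0.0011 at E16.5, and with upper-quartile factors Neurod4 turned to -0.022 from E14.5 to E16.5 in HFD. With no filter 1 member was lower from E16.5 to E18.5 in Control, and with DESeq2 1 was lower in HFD. With only the groups compared, and with E16.5 and E18.5 libraries only (chosen after seeing the data), 1 member was higher over that interval in each diet, Bhlhe22, and with the latter 2 were lower in HFD. The cause of the other reversals was not tested.

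Correlations of deviations between same-numbered libraries ran from -0.131 to 0.24. Libraries with different numbers were not compared in this way, so whether replicate numbers pair the libraries was not tested. With a replicate block 1 member was called lower from E14.5 to E16.5 and 1 from E16.5 to E18.5 in HFD, and diet values turned to -0.021 for Neurog2 and 0.034 for Neurod4 at E16.5 and to -0.050 for Neurog2, -0.0092 for Neurod2 and 0.095 for Neurod4 at E18.5.

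Leaving out each library in turn gave 0 to 1 members lower from E14.5 to E16.5 in Control, 2 to 5 higher and 0 to 1 lower in HFD, and 0 to 1 higher and 0 to 2 lower from E16.5 to E18.5 in each diet. Diet values then ran at E14.5 from -0.66 to 1.27 for Neurod2 and from -0.49 to 1.64 for Neurod6. At E16.5 they ran from -0.72 to 0.19 for Neurog1, -0.40 to 0.39 for Neurog2, -0.30 to 0.40 for Neurod2, -0.34 to 0.037 for Neurod4, -0.37 to 0.11 for Neurod6 and -0.26 to 0.088 for Bhlhe22. At E18.5 they ran from -0.21 to 0.37 for Neurog2, -0.10 to 0.56 for Neurod2, -0.79 to 0.81 for Neurod4, -0.14 to 0.20 for Neurod6 and -0.081 to 0.38 for Bhlhe22. From E16.5 to E18.5 in Control they ran from -0.22 to 0.028 for Neurod1, -0.27 to 0.56 for Neurod2, -1.19 to 0.40 for Neurod4 and -0.067 to 0.46 for Neurod6, and from E14.5 to E16.5 in HFD from -0.11 to 0.22 for Neurod4.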
